A study of Mus musculus with 12 samples.

Results

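Transcripts of 9 hypothalamic neuropeptide precursors were followed across 12 RNA-seq libraries of mouse hypothalamus: the opioids Penk and Pdyn, the tachykinins Tac1 and Tac2, galanin (Gal), neurotensin (Nts), the pituitary adenylate cyclase-activating polypeptide (PACAP, gene Adcyap1), kisspeptin (Kiss1) and urocortin 3 (Ucn3). They were taken by gene symbol as 9 of the 78334 gene IDs of the count table, and 8 of the 9 had reads, all but Kiss1. The mice were male C57BL/6, aged 8 weeks at the start, and differed in diet and in what was given by oral gavage every day for 28 days from 16 weeks of age. The groups were Ob + RSV, Ob + EAE, Ob + CUR, Ob and C. Ob + RSV had a high-fat diet with 60% of its calories from fat and resveratrol at 2.25 mg/kg (3 libraries). Ob + EAE had the same diet and aged garlic extract at 200 mg/kg (2 libraries). Ob + CUR had the same diet and curcumin at 50 mg/kg (1 library). Ob had the same diet and vehicle (3 libraries), and C had standard chow and vehicle (3 libraries). The labels give the diet as lasting 8 weeks in all and the gavage as starting at week 8 of the diet. The study's text places resveratrol within the last 4 weeks of the high-fat diet. The study's methods describe single animals for the libraries of C, Ob and Ob + RSV. For Ob + EAE the sources do not say that the replicates are separate animals. Its test used 1 estimate of the spread shared by all 12 libraries. Its p-values therefore cannot be taken to cover the spread between animals given that treatment.

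Neuropeptides are cut out of longer precursors by prohormone convertases at pairs of basic residues, stored in dense-core vesicles and released to act on G protein-coupled receptors. In the hypothalamus each of these genes marks particular sets of neurons. Pdyn and Tac2 are co-expressed with Kiss1 in neurons of the arcuate nucleus that drive the release of gonadotropin-releasing hormone, Adcyap1 is abundant in the ventromedial nucleus, and Gal and Nts are found in neurons of the lateral hypothalamus and preoptic area. Galanin and the opioid peptides are known for raising food intake, and PACAP, neurotensin and urocortin 3 for lowering it.

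The libraries held 15655156 to 26284661 assigned reads, and levels are given as CPM, the usual depth-scaled read count, computed from each library's total. C replicate 2, Ob replicate 1 and Ob + RSV replicate 2 stood apart from the others: 20.3%, 23.3% and 7.30% of their detected genes had under 10 reads, against 27.7% to 43.5% in the other 9. The 2 Ob + EAE libraries were closer to each other (chi-square per gene 6.51) than any other pair within a group (22.4 to 73.2), though still further apart than sampling noise. All 16 hypothalamic marker genes had reads. Their summed level was 1149 to 2081 CPM in Ob + RSV, 1065 to 1245 CPM in Ob + EAE, 297 CPM in Ob + CUR, 1425 to 2965 CPM in Ob and 1412 to 2090 CPM in C, so the Ob + CUR library was lowest.

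The 8 detected genes spanned a wide range of levels. Read per length (RPKM, the CPM divided by the exon length in kilobases), Penk and Gal were at the top with 70.0 ± 12.7 and 69.8 ± 20.6 RPKM (SD, n = 12). They were followed by Nts at 30.7 ± 14.1, Adcyap1 at 28.8 ± 7.40, Tac1 at 27.5 ± 7.49, Tac2 at 26.3 ± 7.68 and Pdyn at 22.8 ± 5.87 RPKM, and Ucn3 was last at 2.87 ± 1.85 RPKM. Most neighbours in that order did not differ beyond their spread: Penk exceeded Gal in 7 of 12 libraries, Nts exceeded Adcyap1 in 6, Adcyap1 exceeded Tac1 in 5, Tac1 exceeded Tac2 in 8 and Tac2 exceeded Pdyn in 6. Gal lay above Nts in 12 of 12 libraries, although the ranges over libraries overlapped. Only Pdyn and Ucn3 were neighbours whose ranges did not overlap.

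**Figure D1:**
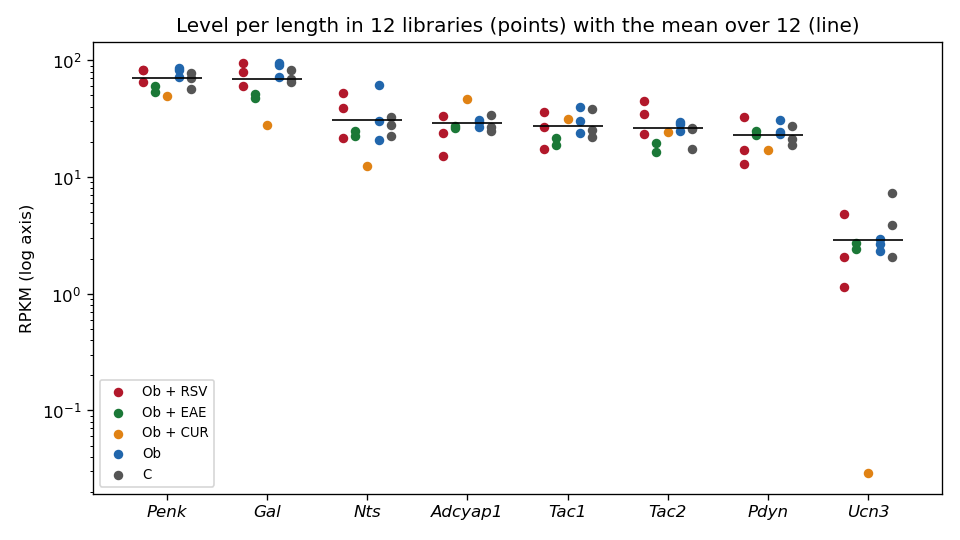
Level per length of the 8 detected neuropeptide genes on a log axis in RPKM, 1 point per library coloured by group, with the mean over the 12 libraries as a line. Penk and Gal lead at 70.0 and 69.8 RPKM, 5 genes lie together between 22.8 and 30.7 RPKM, and Ucn3 lies lowest with 1 Ob + CUR point far below its others.

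Between libraries, 7 of the 8 were less variable than the median gene. The SD of log2 CPM over 12 libraries had a median of 0.42 for the 8 genes, against 0.62 for the 29107 genes that passed edgeR's expression filter. Those genes were not matched to the 8 for level, so the part of level in these ranks was not tested. Penk was the steadiest, at the 21.4th percentile of all those genes, and Nts, at the 49.7th, was close to the median gene. Ucn3 was the exception at the 98.9th percentile, with its highest library in C and its lowest in Ob + CUR, where it had 1 read. Within C, Ob and Ob + RSV, the SD was 0.20 for Penk and 0.24 for Gal, at the 8.16th and 14.6th percentiles, and 0.77 for Ucn3, at the 56.6th, so the high rank of Ucn3 came with the Ob + CUR library.

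**Figure D2:**
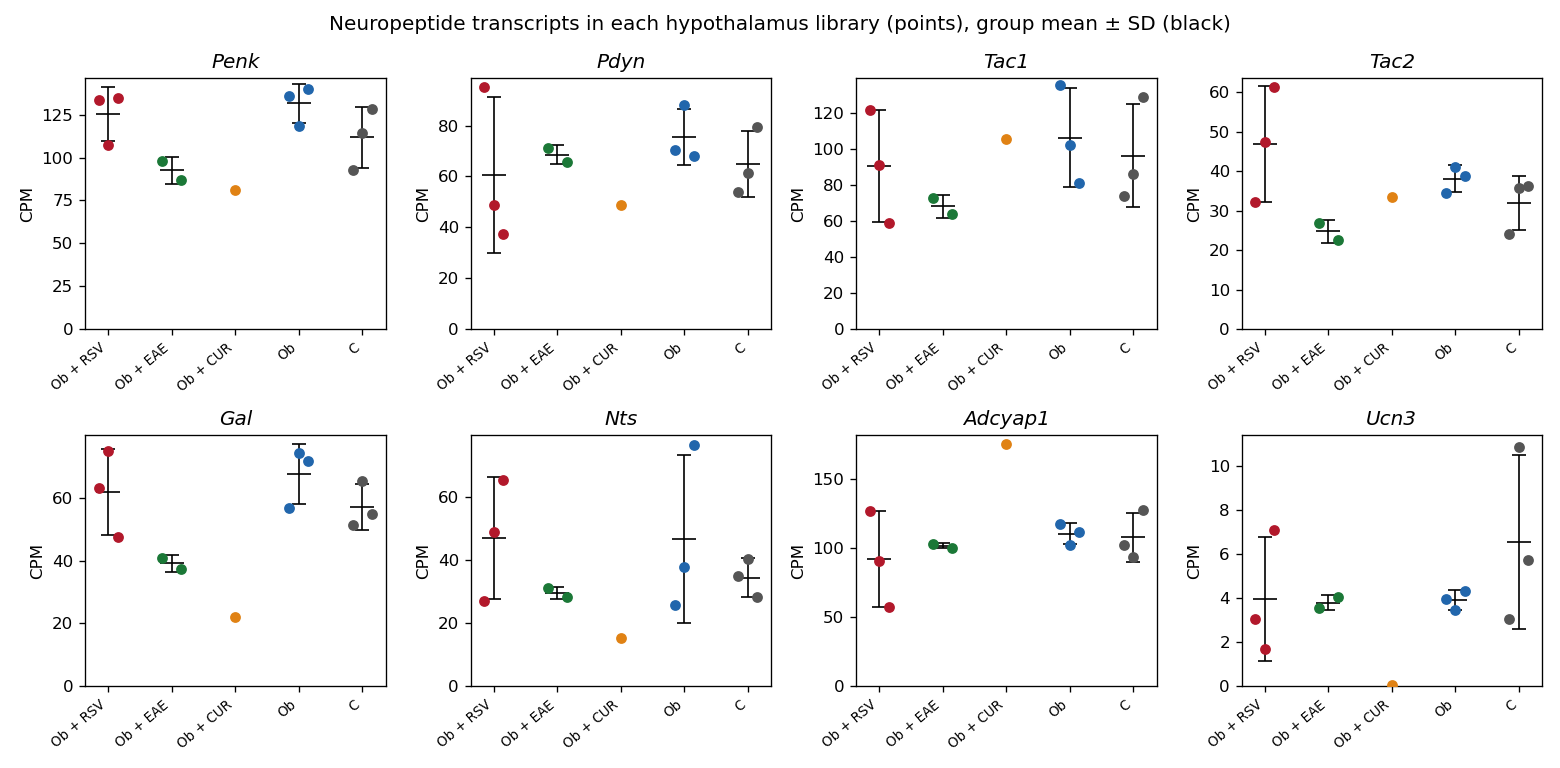
CPM of each detected neuropeptide gene by group (vertical axes in CPM from 0, differing between panels), with 1 point per library and the group mean ± SD in black where a group has more than 1 library. The 2 Ob + EAE points lie below all 3 Ob points for Penk, Tac1, Tac2 and Gal, while the 3 Ob + RSV points spread over or around the Ob points in every panel.

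The opioid and tachykinin precursors are families built around a shared peptide core, and the coding bases of some copies of these cores are given here. Penk and Pdyn encode pentapeptides that begin alike, Met-enkephalin and Leu-enkephalin. In the longest reading frame of the GENCODE transcripts (release vM21, GRCm38), the Met-enkephalin core occurred 6 times and the Leu-enkephalin core once, 1 copy, in Penk (268 codons, chromosome 4), and the Leu-enkephalin core occurred 3 times in Pdyn (248 codons, chromosome 2). Tac1 (130 codons, chromosome 6) encodes substance P and neurokinin A, and Tac2 (116 codons, chromosome 10) encodes neurokinin B, which share the same closing residues. That tail occurred 2 times in Tac1 and 1 time in Tac2. The coding strand is given below, 5′ to 3′, for the first copy in each gene and for both copies in Tac1, with the core in capitals and the 6 bases on each side in lower case.
Penk Met-enkephalin core, copy 1: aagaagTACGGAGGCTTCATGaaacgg
Pdyn Leu-enkephalin core, copy 1: aaacgcTATGGCGGCTTTTTGcgcaaa
Tac1 tachykinin tail, copy 1: cagcagTTCTTTGGATTAATGggcaag
Tac1 tachykinin tail, copy 2: gattccTTTGTTGGACTAATGggcaaa
Tac2 tachykinin tail: gacttcTTTGTGGGACTTATGggcaag
The first copies of the Penk and Pdyn cores had 11 of 15 bases in common, and their other copies were not compared. The Tac2 tail had 10 of 15 bases in common with copy 1 of Tac1 and 13 of 15 with copy 2. In the reference annotation none of these 4 genes shared exon bases with another gene on its strand, but 233 exon bases of Penk (14.3%) lay opposite the antisense gene A830012C17Rik. The sources used here do not say whether strand was used in counting, and without it reads of the 2 genes cannot be told apart over those bases.

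Penk had 134, 107 and 135 CPM in Ob + RSV, 98.1 and 86.9 CPM in Ob + EAE, 81.3 CPM in Ob + CUR, 136, 119 and 140.1 CPM in Ob and 92.7, 115 and 128 CPM in C. Both Ob + EAE libraries and the Ob + CUR library lay below all Ob libraries, and Ob + RSV overlapped Ob. In this bulk tissue, fewer cells of a type and less RNA per cell cannot be told apart. Pdyn had 95.2, 48.8 and 37.3 CPM in Ob + RSV, 71.4 and 65.8 CPM in Ob + EAE, 48.8 CPM in Ob + CUR, 70.3, 88.2 and 68.1 CPM in Ob and 53.9, 61.5 and 79.3 CPM in C. The Ob + RSV libraries held both the highest and the lowest Pdyn level of all 12. Oprk1, the kappa receptor at which dynorphins act, had 24.5, 25.6 and 33.5 CPM in Ob + RSV against 16.0, 20.3 and 32.1 CPM in Ob.

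Tac1 had 122, 91.6 and 59.2 CPM in Ob + RSV, 73.0 and 63.8 CPM in Ob + EAE, 106 CPM in Ob + CUR, 136, 102 and 81.1 CPM in Ob and 74.3, 86.1 and 129 CPM in C. Both Ob + EAE libraries were below the lowest Ob library, and the other groups overlapped. Tac2 had 32.1, 47.5 and 61.3 CPM in Ob + RSV, 26.8 and 22.7 CPM in Ob + EAE, 33.5 CPM in Ob + CUR, 34.4, 41.1 and 38.9 CPM in Ob and 24.2, 35.7 and 36.2 CPM in C. Its Ob + EAE libraries were again below all Ob libraries, and its 2 highest libraries were Ob + RSV replicates 3 and 2.

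Gal had 63.1, 74.8 and 47.5 CPM in Ob + RSV, 40.9 and 37.3 CPM in Ob + EAE, 22.1 CPM in Ob + CUR, 56.7, 74.3 and 71.9 CPM in Ob and 51.4, 65.4 and 54.7 CPM in C. The Ob + EAE and Ob + CUR libraries were the lowest 3 of the 12. Nts had 27.1, 48.9 and 65.6 CPM in Ob + RSV, 31.1 and 28.3 CPM in Ob + EAE, 15.4 CPM in Ob + CUR, 25.8, 37.9 and 76.7 CPM in Ob and 34.9, 40.4 and 28.2 CPM in C. Here the Ob libraries alone spanned the values of every group but Ob + CUR.

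Adcyap1 had 127, 90.5 and 57.5 CPM in Ob + RSV, 103 and 100.2 CPM in Ob + EAE, 175 CPM in Ob + CUR, 117, 102 and 112 CPM in Ob and 102, 93.4 and 127 CPM in C. Its highest library was Ob + CUR and its lowest Ob + RSV replicate 3. Ucn3, a ligand of the receptor encoded by Crhr2, had 3.04, 1.70 and 7.11 CPM in Ob + RSV, 3.55 and 4.04 CPM in Ob + EAE, 0.0430 CPM in Ob + CUR, 3.97, 3.47 and 4.34 CPM in Ob and 3.07, 10.9 and 5.75 CPM in C. The Ob + CUR value was 1 read, for which the exact Poisson interval of 95% runs from 0.0253 to 5.57 reads and covers counting error only.

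Kiss1 had 0 reads in all 12 libraries, which allows up to 3 counts in each, or 0.114 to 0.192 CPM. In the reference annotation all 779 exon bases of Kiss1 (100%) were shared on the same strand with 3 gene IDs, 2 of them named Gm28040 and 1 named Golt1a. Those 3 IDs held 40, 7 and 7 reads over the 12 libraries. The sources used here do not say how shared bases were counted. The 0 and the limit in CPM are for reads assigned to this ID, and may not bound the transcript level. The cause of the 0 was not tested. Kiss1r, the kisspeptin receptor, was detected in every library, at 7.41 to 10.4 CPM in Ob + RSV, 11.4 and 12.8 CPM in Ob + EAE, 10.96 CPM in Ob + CUR, 6.58 to 10.46 CPM in Ob and 8.43 to 11.8 CPM in C.

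The comparison of Ob + RSV with Ob asks what resveratrol changed under the high-fat diet. A differentially expressed gene (DEG) is one with an edgeR adjusted p under 0.05 and a log2 fold change (log2FC) of at least 1 either way, and 0% of the 33534 genes tested were DEGs in this comparison by edgeR or by DESeq2. At an unadjusted p under 0.05, 0 of the 8 neuropeptide genes passed, where 3.16% of all genes did. Libraries of the 2 groups overlapped for all 8, where 6.76% of all genes did not overlap. The log2FC was above 0 for 1 gene and below 0 for 7, with a median of -0.13 against 0 over all genes, 49.6% of which were above 0. The sizes ran from -0.35 (SE 0.26) for Pdyn, -0.29 (SE 0.24) for Adcyap1 and -0.27 (SE 0.26) for Tac1 to 0.26 (SE 0.23) for Tac2. None of these exceeded 2 of its own standard errors. Without the 3 libraries that stood apart, 4 genes were above 0 and 4 below.

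Ob + RSV vs. C sets the treated mice beside the lean ones, and shares its Ob + RSV libraries with the comparison above. Again 0% of 33534 genes were DEGs by edgeR, and DESeq2 on the same libraries called 0. Tac2 was the 1 gene of the 8 at an unadjusted p under 0.05, where 2.87% of all genes were, and 0 of the 8 had libraries that did not overlap, where 5.39% of all genes did. The log2FC of Tac2 was 0.56 (SE 0.24) with an edgeR unadjusted p of 0.0245 and an adjusted p of 1. It was 0.32 without Ob + RSV replicate 3, so that library carried much of the difference. Nts had a log2FC of 0.45 (SE 0.29) and Ucn3 of -0.71 (SE 0.50), and neither passed the test. Directions were split, 4 above 0 and 4 below, with a median of 0.03, where 49.2% of all genes were above 0.

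Ob vs. C asks what the high-fat diet changed. Of the 33534 genes, 0% were DEGs by edgeR or by DESeq2, and 922 (2.75%) had an unadjusted p under 0.05, none of the 8 neuropeptide genes among them. All but Ucn3 had a log2FC above 0, 7 of 8 with a median of 0.28, against 48.8% of all genes above 0. The values were 0.46 (SE 0.29) for Nts, 0.30 (SE 0.24) for Tac2, 0.29 (SE 0.21) for Gal, 0.28 (SE 0.20) for Penk, 0.27 (SE 0.26) for Pdyn, 0.20 (SE 0.26) for Tac1, 0.08 (SE 0.24) for Adcyap1 and -0.68 (SE 0.50) for Ucn3. Each was within 2 standard errors of 0. Without the 3 libraries that stood apart, 5 of 8 were above 0, with Tac1 at -0.12 and Adcyap1 at -0.10. Libraries did not overlap for 1 gene, Tac2, on the scaled CPM of the fit, where 7.64% of all genes did not overlap and 3.86% lay higher in Ob. On CPM from library totals Tac2 did overlap, at 34.4 to 41.1 CPM in Ob against 24.2 to 36.2 CPM in C.

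**Figure D3:**
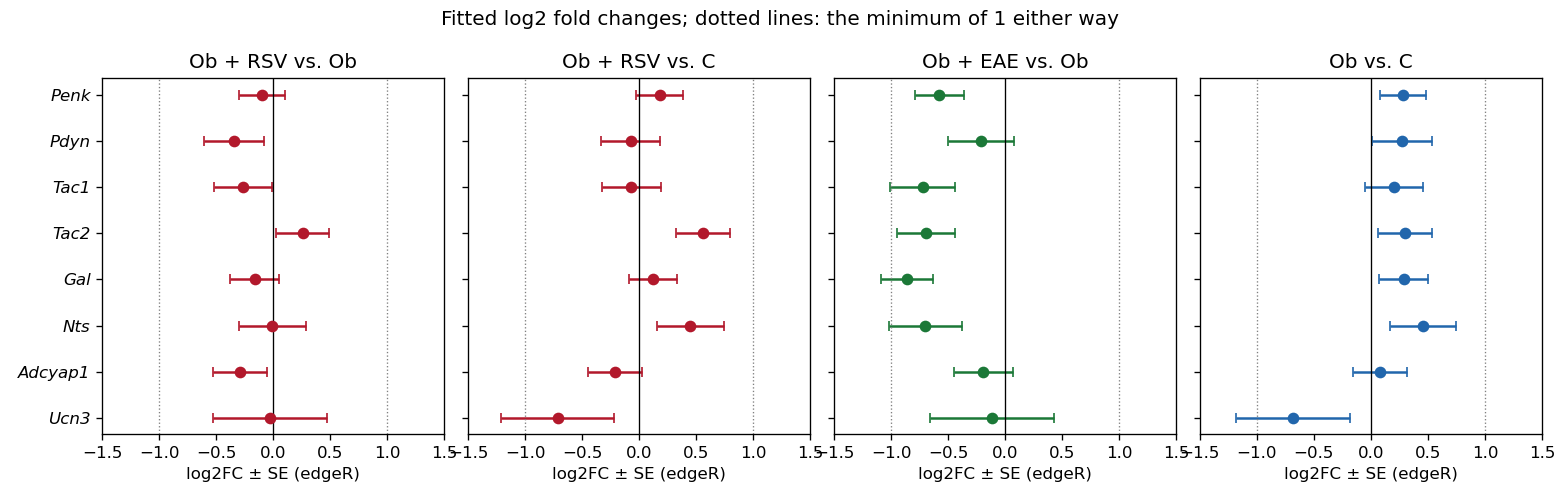
Log2FC ± SE from edgeR for each detected neuropeptide gene in 4 comparisons (horizontal axis in log2 units, dotted lines at the minimum of 1 either way). In Ob + EAE vs. Ob all 8 points lie below 0, down to -0.86 for Gal, and no point in any panel passes a dotted line.

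Ob + EAE vs. Ob compares aged garlic extract with vehicle under the high-fat diet, and here all 8 neuropeptide genes had a log2FC below 0, of which Gal alone passed an adjusted p of 0.05. The 8 values ran from -0.86 to -0.12, with a median of -0.64 against 0.05 over the 36164 genes tested, 52.0% of which were above 0. At an unadjusted p under 0.05 there were 5 of 8, where 13.4% of all genes were, and 6.48% were so with a log2FC below 0. Libraries of Ob + EAE lay below all Ob libraries for 5 of 8 on the scaled CPM of the fit (Penk, Tac1, Tac2, Adcyap1 and Gal), where 15.5% of all genes did and 38.8% did not overlap in either direction. DEGs made up 1.84% of all genes, 665 in number, and 0 of the 8 were among them by edgeR or DESeq2. That count was 18 without Ob replicate 1 and 19 without Ob + EAE replicate 2, so it rested on those libraries. Without the 3 libraries that stood apart it was 1, while all 8 log2FC were still below 0, Gal at -0.93 with an edgeR adjusted p of 0.274.

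Gal showed the largest difference of the 8, with a mean of 39.1 ± 2.56 CPM in Ob + EAE (SD, n = 2) and 67.6 ± 9.52 CPM in Ob (SD, n = 3). Its log2FC was -0.86 (SE 0.23) with an edgeR adjusted p of 0.0424, past the p threshold but under the minimum fold of a DEG. Over 22 alternative settings its log2FC stayed between -0.93 and -0.72, while the adjusted p ranged over 0.000637 to 0.79 and was under 0.05 in 10. It was not under 0.05 when any 1 Ob or Ob + EAE library, C replicate 1 or 2, Ob + RSV replicate 2 or the Ob + CUR library was left out, and was 0.79 without Ob + EAE replicate 2. Gal was also lowest of all in the Ob + CUR library, at 22.1 CPM.

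The other differences in Ob + EAE vs. Ob missed the adjusted threshold. Tac1 had a log2FC of -0.72 (SE 0.29; edgeR adjusted p = 0.212), Nts -0.70 (SE 0.32; adjusted p = 0.317), Tac2 -0.69 (SE 0.25; adjusted p = 0.157) and Penk -0.58 (SE 0.22; adjusted p = 0.173). Pdyn at -0.21 (SE 0.29), Adcyap1 at -0.19 (SE 0.25) and Ucn3 at -0.12 (SE 0.55) were within 1 standard error of 0. The Tac1 value was -0.44 without Ob replicate 1, and the Nts value -0.20 without Ob replicate 3, the library that held the highest Nts level of all.

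Regional marker genes moved with these values. The 5 paraventricular and supraoptic markers summed to 592 and 711 CPM in Ob + EAE against 1006 to 2308 CPM in Ob, among them Oxt (oxytocin) at 247 and 302 CPM against 362 to 734 CPM and Avp (vasopressin) at 249 and 310 CPM against 566 to 1464 CPM. These 2 genes made up most of that sum, and the others of the list did not move alike: Sim1 was higher, at 15.7 and 17.9 CPM in Ob + EAE against 7.94 to 12.54 CPM in Ob, and Otp and Crh lay inside the Ob range. The 5 arcuate markers summed to 127 and 151 CPM in Ob + EAE against 202 to 509 CPM in Ob, with Cartpt at 60.0 and 71.0 CPM against 107 to 286 CPM and Pomc at 51.9 and 63.1 CPM against 70.4 to 180 CPM. The 4 suprachiasmatic markers summed to 31.3 and 32.3 CPM against 57.3 to 66.1 CPM, with Rgs16 at 15.3 and 15.3 CPM against 27.5 to 33.0 CPM. The 2 ventromedial markers summed higher, at 44.1 and 44.8 CPM in Ob + EAE against 28.9 to 36.9 CPM in Ob. Of them Fezf1 was higher, at 27.5 and 28.2 CPM against 15.3 to 26.1 CPM. Nr5a1, at 15.96 and 17.27 CPM, lay inside the Ob range of 10.77 to 17.66 CPM. None of these regional markers was at 0 in either group except Agrp, an arcuate marker with 0 reads in Ob replicate 2. Lists of other cell types and regions differed too. The 6 oligodendrocyte markers summed lower, at 4991 and 5342 CPM in Ob + EAE against 6311 to 6804 CPM in Ob. Sums were higher for cortex and hippocampus, at 512 and 534 CPM against 327 to 397 CPM, striatum, at 167 and 178 CPM against 145 to 153 CPM, choroid plexus, at 38.6 and 38.9 CPM against 17.0 to 29.2 CPM, and habenula, at 24.1 and 25.5 CPM against 14.2 to 20.5 CPM. Thalamic, mammillary and lateral hypothalamic sums lay inside the range of Ob. The part of regional make-up in the lower neuropeptide levels was not tested.

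The Ob + CUR library was a single one, so its values carry no test of curcumin. Relative to the mean of Ob, it held 0.327 times the Gal level, 0.329 times the Nts level, 0.618 times the Penk level and 0.646 times the Pdyn level, but 1.59 times the Adcyap1 level. Penk, Gal, Nts and Ucn3 were below and Adcyap1 above all other 11 libraries, while Pdyn, Tac1 and Tac2 lay inside their range. The same library had 4.04 CPM of Oxt and 8.42 CPM of Avp, where the other 11 had at least 202 and 249 CPM. Of the same list, Crh was also below the other 11, Otp was inside their range, and Sim1 was above them at 24.3 CPM, where they had 7.54 to 17.9 CPM. Nkx2-1, in the hypothalamic list, was above them too, at 87.1 CPM, where they had 16.8 to 48.8 CPM. Its 2 lateral hypothalamic markers were at 2.06 CPM for Hcrt (orexin) and 86.2 CPM for Pmch (melanin-concentrating hormone), below all others, and Nr5a1, a ventromedial marker, had 10 reads. Foxb1, a marker of the mammillary region, was at 57.2 CPM, where the other 11 had 3.00 to 24.2 CPM. Curcumin and the regional content of this library cannot be told apart.

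Among the Ob + RSV libraries, replicate 3 set the spread of several genes. It had the lowest Pdyn, Tac1 and Adcyap1 levels of all 12 libraries and the highest Tac2 level. Nr5a1 had 0 reads there, against 144 and 674 reads in Ob + RSV replicates 2 and 1, and Rax, another hypothalamic marker, had 0 reads too. The 2 ventromedial markers summed to 6.35 CPM against 21.0 and 53.0 CPM. The 5 arcuate markers summed to 51.3 CPM there, with Pomc at 2.53 CPM, where the other 11 libraries had 127 to 509 CPM in sum. Cartpt and Ghrh were also lowest there, but Npy was not. Agrp, with 16 reads, lay above all other libraries except C replicate 2. The 3 mammillary markers summed to 7.82 CPM, the lowest of all. The part of these regions in the spread of the neuropeptide genes was not tested.

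**Figure D4:**
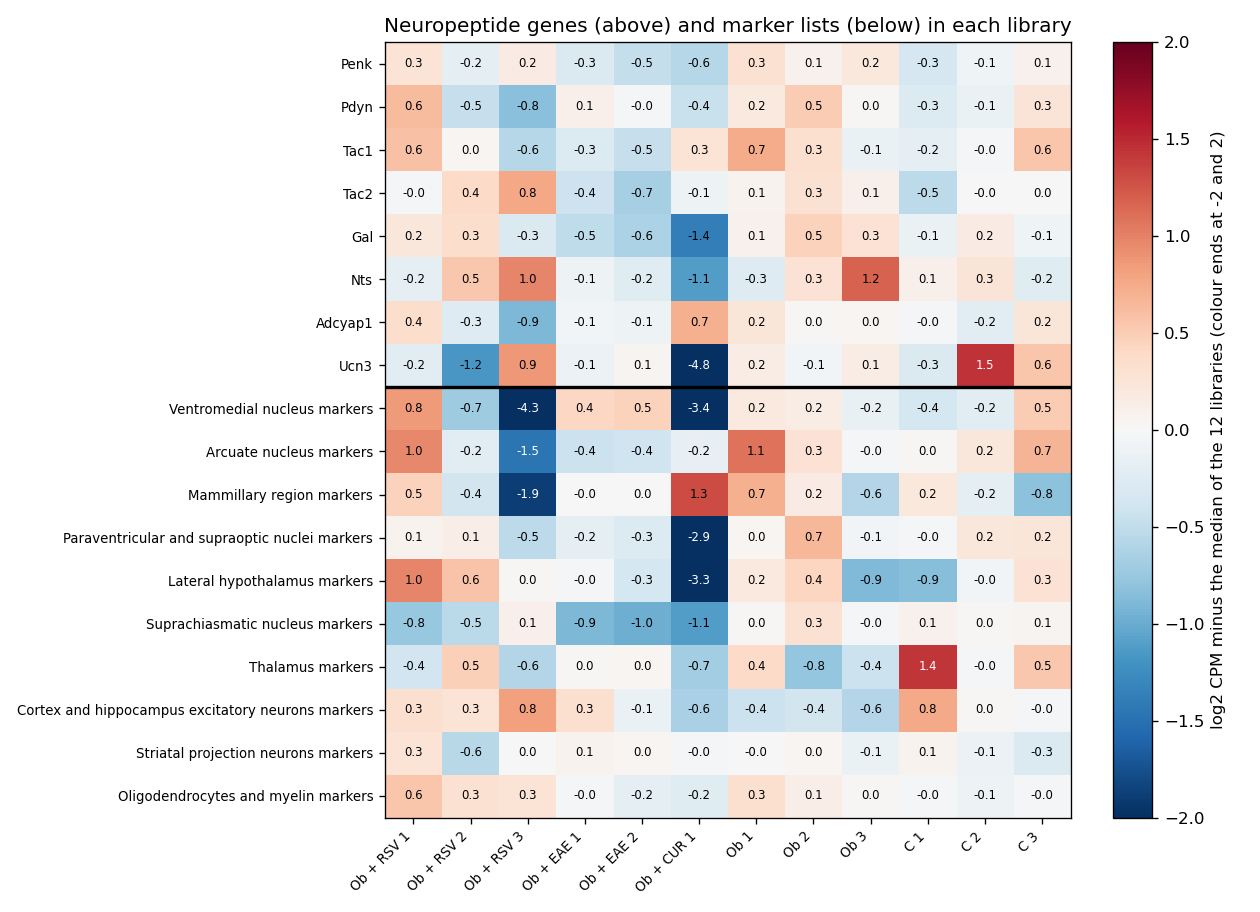
Log2 CPM minus the median of 12 libraries for the 8 detected neuropeptide genes (above the line) and for the mean of 10 marker lists (below it), 1 column per library, with colour ending at -2 and 2. Ob + RSV replicate 3 stands out by low ventromedial (-4.3), arcuate (-1.5) and mammillary (-1.9) markers, and Ob + CUR by low paraventricular (-2.9) and lateral hypothalamic (-3.3) markers with Gal at -1.4 and Ucn3 at -4.8.

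Across the 12 libraries, 3 neuropeptide genes followed markers of a hypothalamic region. Correlations were computed between the 8 genes and 14 marker lists, 112 relations on log2 CPM, with permutation p-values adjusted by Benjamini-Hochberg over all 112, and 3 passed 0.05. Tac1 followed the arcuate list with Pearson's r = 0.889 (permutation p = 4e-05, adjusted 0.00336) and Spearman's rho = 0.881 (permutation p = 0.0004, adjusted 0.0392), and r was 0.835 without the 2 libraries farthest from the median of the markers. Pdyn followed the ventromedial list with r = 0.82 (permutation p = 6e-05, adjusted 0.00336) and rho = 0.867 (permutation p = 0.0007, adjusted 0.0392), and r was 0.827 without those 2, which for this list are Ob + RSV replicate 3 and Ob + CUR. Gal followed the paraventricular and supraoptic list with r = 0.872 (permutation p = 0.00034, adjusted 0.0127) and rho = 0.769 (permutation p = 0.00475, adjusted 0.106), and r was 0.648 without those 2, which include Ob + CUR.

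**Figure D5:**
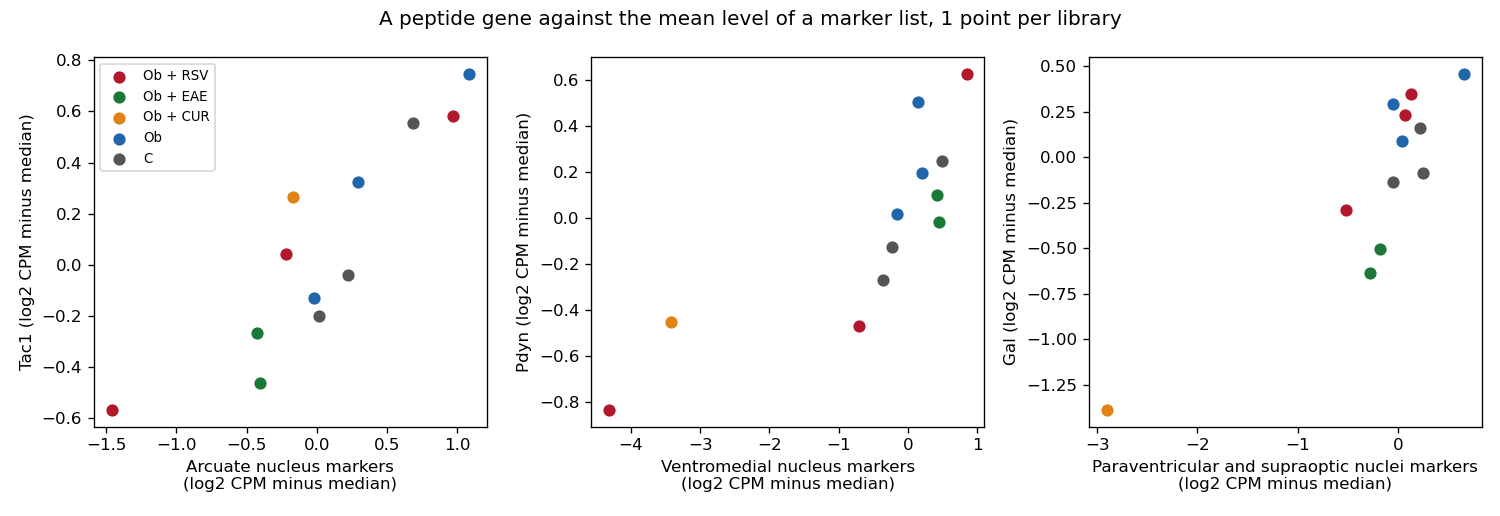
Log2 CPM minus the median over libraries of Tac1, Pdyn and Gal (vertical) against the mean of the arcuate, ventromedial, and paraventricular and supraoptic marker lists (horizontal), 1 point per library coloured by group. Each gene climbs with its markers (r = 0.889, 0.82 and 0.872), and single points lie far out at the low end, Ob + RSV replicate 3 on the left and middle and Ob + CUR on the middle and right.

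With the group means taken off and the Ob + CUR library left out, the correlations were similar in size. They were r = 0.933 for Tac1 with the arcuate markers, r = 0.841 for Pdyn with the ventromedial markers and r = 0.825 for Gal with the paraventricular and supraoptic markers. An exact permutation test that exchanged libraries only within a group, with 432 arrangements, gave p = 0.00463, 0.141 and 0.0278 for these, or 0.173, 0.565 and 0.259 when adjusted over the 112 relations, so within groups none passed. Nor were the within-group relations particular to these regions. By the same exact test, Tac1 had r = 0.851 with the oligodendrocyte markers (unadjusted p = 0.00926). Pdyn had r = 0.903 with the 16 hypothalamic markers (unadjusted p = 0.0278). Among pairs of the neuropeptide genes themselves 0 of 28 passed 0.05 after adjustment and 7 had an unadjusted permutation p under 0.05. The 3 with the smallest p were Penk with Gal (r = 0.72, rho = 0.55, permutation p = 0.00569 and 0.0674, adjusted 0.079 and 0.218, r = 0.37 without the 2 farthest libraries), Nts with Adcyap1, which ran in opposite directions (r = -0.75, rho = -0.63, permutation p = 0.00846 and 0.0336, adjusted 0.079 and 0.211, r = -0.88 without the 2 farthest), and Tac1 with Adcyap1 (r = 0.71, rho = 0.71, permutation p = 0.00659 and 0.012, adjusted 0.079 and 0.211, r = 0.68 without them).

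The genes whose levels ran most like each neuropeptide gene over the 12 libraries, out of 23832 compared, are given as a description by Pearson's r. Being picked as the highest of that many, these values are high by selection and were not tested. For Tac1 they were Ostf1 (0.926), Cartpt (0.917), itself in the arcuate list, and Necab2 (0.912). For Pdyn they were Otp (0.931), a transcription factor in the paraventricular list, Hap1 (0.929) and Mlycd (0.924). For Adcyap1 they were Nkx2-1 (0.945), a transcription factor of the ventral hypothalamus, Tbx3 (0.944) and Sulf1 (0.936). For Gal they were Mrto4-ps2 (0.942), Gsto1 (0.934) and Pnoc (0.917), the precursor of the opioid-related peptide nociceptin. For Penk they were Ppie (0.952), Mrps17 (0.939) and Fos (0.939), an immediate early gene. For Nts they were Serpinf1 (0.927), Samd3 (0.87) and Gm42583 (0.855), and for Tac2 Sfxn1 (0.868), Gm27167 (0.865) and Bbip1 (0.858). For Ucn3 they included Tnnt2 (0.918) and Slc30a3 (0.908), which were at 0.608 and 0.465 without Ob + CUR.

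Receptors, related precursors and processing enzymes of these peptides, 38 genes in all, were read in the same fits. In Ob + RSV vs. Ob, Ob + RSV vs. C and Ob vs. C, 0 of the 35 tested were DEGs by edgeR, with 2, 1 and 2 at an unadjusted p under 0.05, beside 3.16%, 2.87% and 2.75% of all genes. In Ob + EAE vs. Ob 2 of the 37 tested were DEGs, Oprm1 higher and Vip lower, where 1.84% of all genes were, and 12 had an unadjusted p under 0.05, where 13.4% of all genes had. Over all 37 the directions were even, 19 above 0 and 18 below, with a median log2FC of 0.04. The 7 tested precursors among them, relatives of the 8 neuropeptide genes such as Pomc, Pnoc and Vip, had 0 above 0 and 7 below, with a median of -0.69. A difference between the lists was not tested.

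Oprm1, the mu opioid receptor at which enkephalins act, had 0.837, 2.30 and 1.18 CPM in Ob + RSV, 4.498 and 8.59 CPM in Ob + EAE, 5.07 CPM in Ob + CUR, 0.515, 0.440 and 0.575 CPM in Ob and 2.60, 5.46 and 0.863 CPM in C. The Ob libraries held 8 to 10 reads each and were the lowest 3 of the 12. Oprm1 rose in Ob + EAE vs. Ob with a log2FC of 3.60 (SE 0.69, edgeR adjusted p = 0.00767), and over 22 alternative settings its adjusted p ran from 5.82e-08 to 0.263, under 0.05 in 19. It was 0.263 without Ob + EAE replicate 2 and 0.0632 without Ob replicate 1. In Ob vs. C its log2FC was -2.48 (SE 0.80) with an unadjusted p of 0.00411 and an adjusted p of 1. Oprd1, the delta opioid receptor, had 6.39 and 7.38 CPM in Ob + EAE against 2.73, 2.47 and 1.98 CPM in Ob, a log2FC of 1.44 with an edgeR adjusted p of 0.123, which ran from 0.0046 to 0.89 over 22 alternative settings and was under 0.05 in 3.

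Vip, the precursor of vasoactive intestinal peptide and a relative of Adcyap1, had 1.37, 3.49 and 24.4 CPM in Ob + RSV, 2.37 and 2.14 CPM in Ob + EAE, 1.42 CPM in Ob + CUR, 8.24, 12.7 and 13.5 CPM in Ob and 12.6, 10.9 and 12.46 CPM in C. It fell in Ob + EAE vs. Ob with a log2FC of -2.41 (SE 0.66, edgeR adjusted p = 0.0454). The call ended in 12 of 22 alternative settings, with an adjusted p that ran from 3.85e-09 to 0.456, the highest without Ob + EAE replicate 2, and was 0.173 without Ob replicate 1. Vip was one of the 4 suprachiasmatic markers that summed lower in Ob + EAE, and the part of that region in the result was not tested. Of the receptors and enzymes that were not DEGs, Tacr3, the receptor of neurokinin B, had 13.3, 16.2 and 25.99 CPM in Ob + RSV against 9.69, 8.91 and 11.9 CPM in Ob, with a log2FC of 0.83 (SE 0.30), an edgeR unadjusted p of 0.00981 and an adjusted p of 1. Sort1, a sorting receptor that also binds neurotensin, had 130 and 143 CPM in Ob + EAE against 74.6, 82.0 and 68.3 CPM in Ob, with a log2FC of 0.79 (SE 0.24, adjusted p = 0.0784). Scg5, a chaperone of the prohormone convertase PC2, had 195 and 170 CPM in Ob + EAE against 361, 261 and 269 CPM in Ob, with a log2FC of -0.78 (SE 0.23, adjusted p = 0.0662).

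The remaining receptors and enzymes showed no DEG. Galr1, a galanin receptor, had 8.19 and 7.71 CPM in Ob + EAE against 1.13, 4.24 and 4.02 CPM in Ob, with a log2FC of 1.29 (SE 0.54, edgeR adjusted p = 0.246), so the receptor's libraries lay higher where those of Gal lay lower. Galr3, another galanin receptor, was under 3 CPM in every library. Adcyap1r1, the PACAP receptor, had 454 and 481 CPM in Ob + EAE against 299, 358 and 313 CPM in Ob, with a log2FC of 0.46 (SE 0.22, adjusted p = 0.369). Vipr2, which binds both PACAP and vasoactive intestinal peptide, had 4.17 and 4.55 CPM in Ob + EAE against 5.77, 9.13 and 7.22 CPM in Ob, with a log2FC of -0.83 (SE 0.40, adjusted p = 0.372). For Galr1, Galr3, Adcyap1r1 and Vipr2 both Ob + EAE libraries lay outside the range of Ob, as they did for 38.8% of all genes.

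Crhr2, the urocortin receptor, had 8.33, 6.53 and 8.59 CPM in Ob + RSV against 13.96, 10.07 and 11.9 CPM in Ob, with a log2FC of -0.65 (SE 0.32), an edgeR unadjusted p of 0.0527 and an adjusted p of 1. Its ligand gene Ucn3 differed little there (log2FC -0.03, SE 0.50). Pcsk1n, which encodes an inhibitor of prohormone convertase 1, had 2579, 1675 and 889 CPM in Ob + RSV, 1654 and 1324 CPM in Ob + EAE and 4317, 2744 and 1320 CPM in Ob, so that the Ob libraries spread widely and overlapped both other groups. Its log2FC was -0.75 (SE 0.34, adjusted p = 1) in Ob + RSV vs. Ob and -1.003 (SE 0.38, adjusted p = 0.186) in Ob + EAE vs. Ob. Crhbp, the binding protein of corticotropin-releasing factor, Ntsr2, a neurotensin receptor, and Tacr1, the substance P receptor, stayed within 2 standard errors of 0 in all 4 comparisons.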

How the data were processed

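Poly(A) RNA of hypothalamus was sequenced as paired ends in 12 libraries. Per the labels and the study's methods, the authors aligned reads to GRCm39 with HISAT2 and counted them per Ensembl gene with featureCounts. The deposited values are raw counts, not normalized. The sources used here do not give the annotation release, the strand setting or the handling of shared reads.

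CPM were computed from library totals. Symbols were taken from the reference tables for 51486 of 78334 IDs (65.7%), which held 98.1% of counts. RPKM used exon union lengths of GENCODE vM21 (GRCm38), matched by gene ID, so no coordinates are given.

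edgeR 4.0.16 (R 4.3.3) fitted genes with at least 10 reads in total, with TMM scaling, glmQLFit and glmQLFTest and Benjamini-Hochberg adjustment. C, Ob and Ob + RSV were fitted on their 9 libraries (33534 genes, 6 residual degrees of freedom) and Ob + EAE vs. Ob on 12 libraries (36164 genes, 7 residual degrees of freedom). The SE was taken as the log2FC divided by the square root of F. Scaled CPM, overlap of libraries and correlations used TMM, with a prior count of 2 for log2 CPM. Correlations had 100000 permutations. The scripts were tested on simulated data. DESeq2 1.42.0 was an alternative, as were other scalings, filters, library subsets and a replicate block.

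The members, gene lists and marker lists were chosen with earlier results of these data known. Every neuropeptide gene is named, then per pathway list each DEG or else the 2 genes with the smallest p, the 3 genes most like each neuropeptide gene, and, from marker lists given beside a result, the markers at 0 and the 2 with the largest range. Some genes that this rule names are not reported here. Oprk1, Oprd1, Sim1, Otp, Crh and Nkx2-1 were named after their values were seen.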

Additional observations from a re-analysis of the deposited data

How the results depend on the processing

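No neuropeptide gene gained or lost a DEG call under any alternative: direction and call stayed the same for 175 of 176 values in Ob + EAE vs. Ob, 143 of 160 for Ob + RSV vs. Ob, 152 of 160 for Ob + RSV vs. C and 155 of 160 for Ob vs. C. The cause was not tested for the values that turned. Leaving out 1 library at a time, the number of DEGs ran from 18 to 1172 in Ob + EAE vs. Ob (665), 0 to 2 in Ob + RSV vs. Ob, 0 to 3 in Ob + RSV vs. C and 0 to 11 in Ob vs. C (0 in each of the last 3 comparisons with all libraries). In the same order, the count was 1031, 11, 32 and 35 with genes of at least 1 read, and 1757, 733, 790 and 388 with unadjusted p-values. DESeq2 on the 2 groups alone gave 1269 in Ob + EAE vs. Ob, and 1 when Ob + RSV was set against C. The expression filter gave 77 in Ob + EAE vs. Ob, and leaving out the 3 libraries that stand apart gave 1.

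Whether the replicate numbers pair the samples was not formally tested. Same-numbered libraries correlated between -0.02 and 0.22, and 3 of 9 such pairs were above 0.1. Ob and Ob + RSV libraries with the same number had r = 0.188, 0.0313 and 0.218. Those with different numbers were all below 0, down to -0.205. Group means were taken off before correlating, so a positive value for 1 pair pulls the other pairs of that library down. The 2 sets of values are therefore not separate evidence. Pairs with a C library showed no such split, at -0.0206 to 0.102 for same numbers and -0.154 to 0.104 for different ones. With the replicate block the counts were 1417, 10, 35 and 50 in that order, and Nts had a log2FC of 0.0160 in Ob + RSV vs. Ob and Ucn3 of 0.0248 in Ob + EAE vs. Ob, both above 0.

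In Ob + RSV vs. Ob, Nts turned above 0 at 0.0011 with RLE scaling, 0.0090 with upper quartile scaling, 0.0129 with library totals, 0.0023 with the expression filter and 0.0014 with DESeq2, and its values with 1 library left out ran from -0.32 to 0.48. Ucn3 was at 0.0025 with library totals and ran from -0.74 to 0.33 with 1 left out, and Penk ran from -0.18 to 0.0248. Without the 3 libraries that stand apart, Penk was at 0.0831, Tac1 at 0.0171 and Ucn3 at 0.38 there, Pdyn at 0.0602 and Ucn3 at 0.21 in Ob + RSV vs. C, and Tac1 at -0.12 and Adcyap1 at -0.10 in Ob vs. C. With 1 library left out, Pdyn ran from -0.61 to 0.18, Tac1 from -0.37 to 0.19 and Adcyap1 from -0.56 to 0.0366 in Ob + RSV vs. C, and Tac1 from -0.0360 to 0.45, Nts from -0.0352 to 0.73 and Adcyap1 from -0.0233 to 0.20 in Ob vs. C.

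Of the 8 places in the order of levels, 2 stayed without the division by length, and 4 to 8 with 1 library left out. Without the Ob + CUR library, an alternative chosen after seeing the data, 2 pairs of neuropeptide genes and 7 relations to marker lists passed 0.05, and with group means taken off 0 did, in either family. With at most 3 libraries a group, the SE of a log2FC was 0.20 to 0.55, which limits the differences that could be detected.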
